A study of Mus musculus with 14 samples.

Results

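The 10 genes described here carry out the uptake, carriage, storage and release of fatty acids: Lpl, Angptl4, Cd36, Fabp4, Fabp5, Acsl1, Plin2, Pnpla2, Lipe and Mgll. They were taken by name and found once each by gene symbol, 10 of 14330 genes in the glycerol table and 10 of 56953 genes in the BaCl2 table. RNA came from primary fibro-adipogenic progenitors (FAPs), the mesenchymal stromal cells of skeletal muscle, sorted with magnetic beads from the tibialis anterior (TA) muscle of mice 3 days after injury. There were 4 SMA and 4 WT libraries after glycerol injury and 3 SMA and 3 WT libraries after barium chloride (BaCl2) injury, 14 in all. SMA is read here as spinal muscular atrophy. The labels give no allele, age or sex, no antibody for the bead sort and no statement that replicates came from separate animals, so p-values measure the spread between these libraries, which may be technical. The injury is also the label's batch and each injury has its own table, normalised separately, so that injury, batch and normalisation cannot be told apart.

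Fatty acids can reach a cell as triglyceride in lipoproteins. Lipoprotein lipase (Lpl) frees them, Angptl4 inhibits that lipase, Cd36 takes them up at the membrane, and Fabp4 and Fabp5 carry them through the cytosol until an acyl-CoA synthetase such as Acsl1 activates them. Stored fat sits in droplets coated by perilipins such as Plin2 and is released by Pnpla2 (adipose triglyceride lipase), Lipe (hormone-sensitive lipase) and Mgll (monoglyceride lipase) in turn. In muscle, FAPs are the cells that can become fat cells after glycerol injury, macrophages in injured tissue take up lipid and hold droplets, and capillary endothelium carries lipase, Cd36 and Fabp4.

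Smn1, the gene deficient in the disease, averaged 745 ± 75.9 normalised counts in SMA and 1084 ± 113 in WT libraries after glycerol (SD, n = 4 each), and 11.1 ± 1.001 CPM (reads scaled to a common total) in SMA, against 16.1 ± 0.94 CPM in WT libraries after BaCl2 (SD, n = 3 each), with no overlap in either table. Raw totals after BaCl2 ranged over 97715538 to 132531228 counts in SMA and 121343964 to 136437776 counts in WT libraries. The depth of the glycerol libraries is unknown, since that table holds normalised values. The bead-sorted cells held RNA of other cells as well. Summed levels of 24 macrophage markers were 291835, 349457, 164833 and 398404 normalised counts in SMA libraries 1 to 4, against 137487 to 176277 in WT libraries after glycerol, and 3849, 3214 and 2674 CPM in SMA libraries 1 to 3, against 1461 to 2018 CPM in WT libraries after BaCl2. Thus SMA library 3 of the glycerol set lay within the WT range and the other SMA libraries of both sets lay above it. Of these markers, 9 were higher in SMA after glycerol and 21 after BaCl2, and none was lower. By limma the 9 became 23 without SMA library 3, 1 without WT library 4 and 0 without SMA library 1, 2 or 4 or WT library 1, 2 or 3, with 20 to 22 at an unadjusted p under 0.05. By edgeR the 21 became 8 on leaving out SMA library 2, 9 on leaving out WT library 2 and 2 on leaving out WT library 3. Summed levels of 15 endothelial markers were 16692 to 19921 normalised counts in SMA and 23356 to 33080 in WT libraries after glycerol, and 440 to 569 CPM in SMA, against 336 to 531 CPM in WT libraries after BaCl2. The sum of 14 FAP markers was 4433500 to 5650970 normalised counts in SMA and 4559050 to 6230220 in WT libraries after glycerol, where limma called 0 of 14 (1 at an unadjusted p under 0.05). After BaCl2 it was 57554 to 76424 CPM in SMA, against 85805 to 94198 CPM in WT libraries, and edgeR called Ly6a, Lum, Col1a2 and Col3a1 lower. Most of that sum was collagen, with Col1a1, Col1a2 and Col3a1 at 17388, 16694.5 and 19158 CPM in SMA library 1. Among the other FAP markers, Ly6a, Lum, Dcn and Tcf7l2 lay below WT in every SMA library after BaCl2. Pdgfra, Cd34, Osr1, Dpp4, Pi16, Mfap5 and Gsn overlapped between the genotypes. Genes of mature fat cells were low: the sum of 12 after BaCl2 was 2.002 to 2.58 CPM in SMA, against 2.41 to 2.92 CPM in WT libraries, with Lep at 0 in all of them. After glycerol 4 of those 12 were listed and summed to 136 to 517 normalised counts in SMA and 71.1 to 184 in WT libraries. Limma called 0 of these 4, with 3 at an unadjusted p under 0.05. After BaCl2 edgeR called 0 of 5 tested, with 2 at an unadjusted p under 0.05. Of other marker lists, limma called 1 of 9 pericyte and smooth muscle markers lower and 1 of 6 neutrophil markers higher after glycerol. The pericyte and smooth muscle sum was 17796 to 20762 normalised counts in SMA and 23259 to 30557 in WT libraries after glycerol. It was 411 to 488 CPM in SMA, against 452 to 485 CPM in WT libraries after BaCl2. After BaCl2 edgeR called 4 of 8 Schwann cell markers higher, 1 of 4 satellite cell markers lower, 2 of 6 neutrophil markers higher and 1 lower, and 1 of 9 pericyte and smooth muscle markers higher and 1 lower. In bulk RNA, fewer cells of a type and less RNA per cell cannot be told apart.

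After glycerol, Lpl was higher and Fabp4 lower in SMA than in WT libraries, and the other 8 genes did not pass the test (limma on log2(value + 1), Benjamini-Hochberg adjusted p under 0.05). That is 2 of 10 genes, where 2.87% of all 14330 genes tested were called, 1.7% higher and 1.17% lower. The median log2 difference, SMA minus WT, was 0.37 over the 10 genes and -2.03e-05 over all genes, and 8 of the 10 were positive. Groups did not overlap for Lpl, Angptl4, Pnpla2 and Fabp4, 4 of 10, against 14.1% of all genes, and each of these gave an exact two-sided permutation p of 0.0286, the smallest that 4 against 4 allows. Lpl, Fabp4, Angptl4, Plin2 and Pnpla2 passed in the authors' deposited table, 5 of 10, where 12.5% of genes did. SMA library 3 decides much of this: without it, limma called 6 of the 10 genes, Lpl, Cd36, Fabp5, Plin2 and Pnpla2 higher and Fabp4 lower, while 1645 genes were called over the whole table. Without any one of the 7 other libraries (SMA 1, 2 or 4, or WT 1, 2, 3 or 4) limma called 0 of the 10, with 5 of them at an unadjusted p under 0.05 each time, and 0 to 82 genes over the whole table. With all libraries of this injury, 5 of the 10 and 3333 of all 14330 genes had an unadjusted p under 0.05 by limma.

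**Figure D1:**
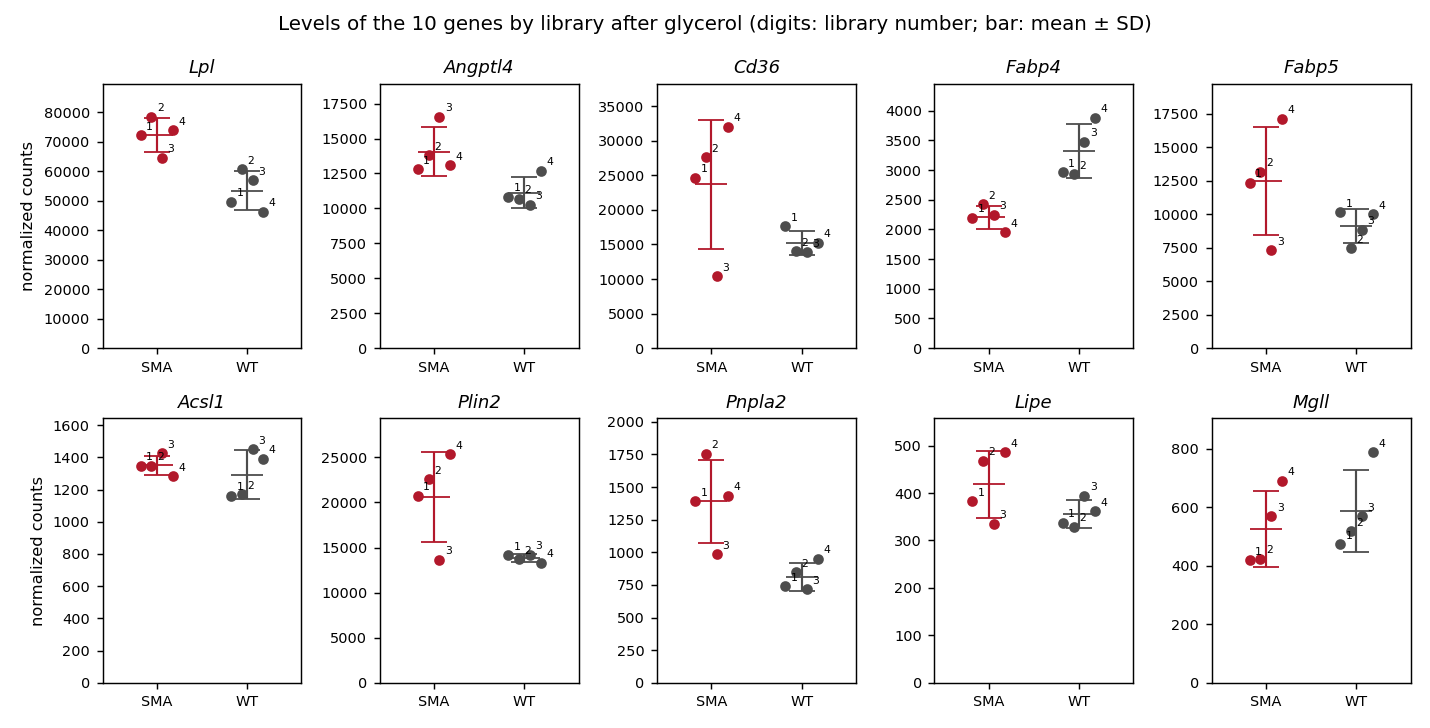
Normalised counts of the 10 genes after glycerol injury, one panel a gene, with SMA libraries left of WT libraries; points are libraries with their numbers and the bar is the mean with its SD (n = 4 each), on axes that start at 0. Lpl, Angptl4 and Pnpla2 lie above WT in every SMA library, Fabp4 lies below, and 1 SMA library is low for Cd36, Fabp5 and Plin2.

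After BaCl2, Cd36, Fabp5 and Plin2 were higher in SMA than in WT libraries, none of the 10 genes was lower, and 7 did not pass (edgeR quasi-likelihood test on counts, Benjamini-Hochberg adjusted p under 0.05). That is 3 of 10 genes, where 4.29% of all 20119 genes tested were called, 2.73% higher and 1.56% lower. Of the 10, 7 had an unadjusted p under 0.05, the 3 called genes and Lpl, Angptl4, Pnpla2 and Mgll. The number of all genes under that unadjusted cut after BaCl2 is not reported here. The median log2 difference was 0.28 over the 10 genes and -0.00285 over all genes. Those 7 genes also had groups that did not overlap, where 25.3% of all genes did not; the exact permutation test cannot go below 0.1 with 3 against 3. Of the 10 genes, 6 passed in the authors' deposited table, Cd36, Fabp5, Plin2, Pnpla2, Lpl and Angptl4, where 13.8% of genes did. By edgeR, 0 of the 10 were called without SMA library 1, SMA library 2, WT library 2 or WT library 3, with 7 at an unadjusted p under 0.05 in each case, 2 without WT library 1 (Cd36 and Fabp5), and 4 without SMA library 3, which added Pnpla2. Over all genes, edgeR called 863 with all libraries and 41 to 1577 with 1 library left out. DESeq2 on all libraries called 6 of the 10, and it also called more genes over the whole set, as given in the last section.

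**Figure D2:**
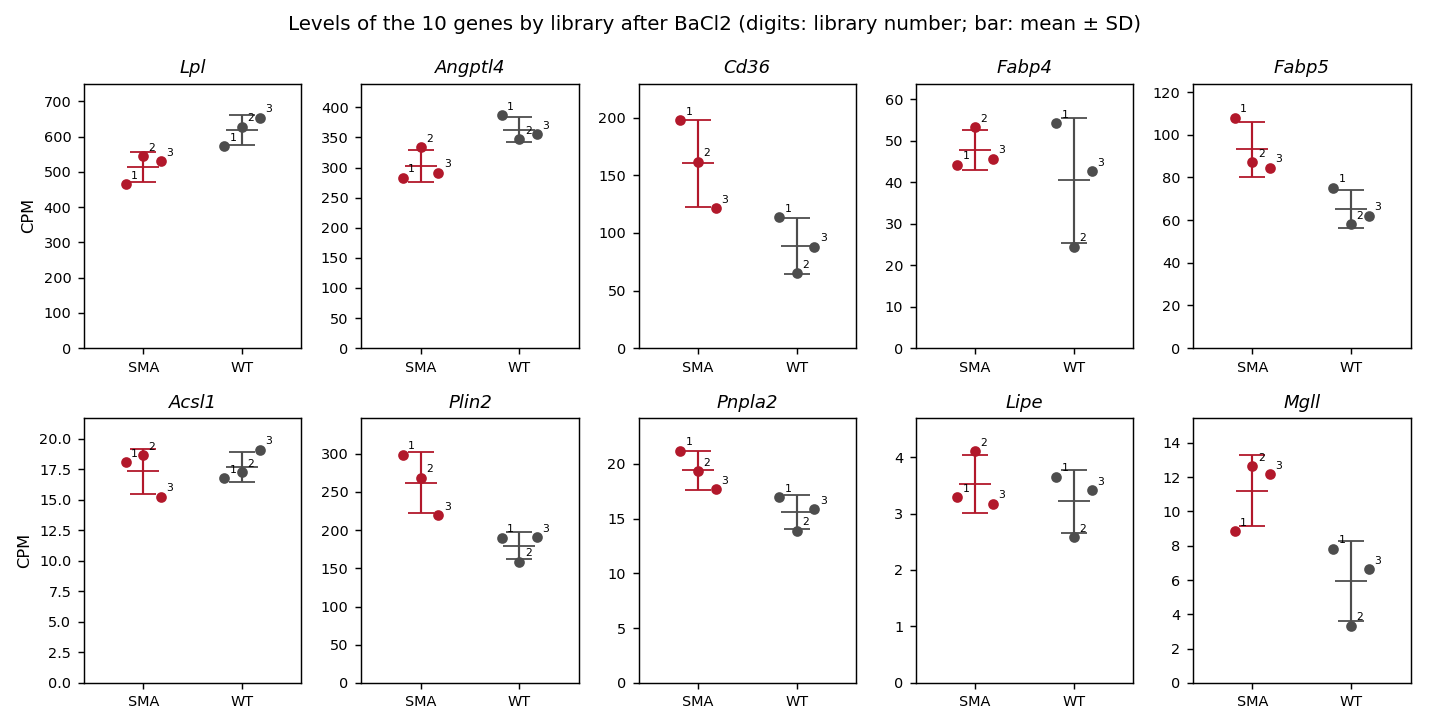
CPM of the 10 genes after BaCl2 injury, one panel a gene, with SMA libraries left of WT libraries; points are libraries and the bar is the mean with its SD (n = 3 each), on axes that start at 0. Cd36, Fabp5, Plin2, Pnpla2 and Mgll lie above WT in every SMA library, and Lpl and Angptl4 lie below.

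The genotype difference itself differed between the injuries for 4 of the 10 genes, Lpl and Angptl4 upward and Fabp4 and Mgll downward after glycerol relative to BaCl2 (z test of the difference of the log2 differences, adjusted over 13960 genes fitted in both tables). Over all those genes 10.5% were called, 5.53% upward and 5% downward. For Plin2 the log2 difference was 0.54 in both sets. Lpl and Angptl4 passed with any one of the 14 libraries left out, while Fabp4 and Mgll lost the call without SMA library 2 of the BaCl2 set (adjusted p of 0.0716 and 0.066 by the z test), which leaves 2 of 10. The z test takes each SE as exact, although it rests on 3 or 4 libraries a group, so its p-values are likely too small. A single limma fit over both tables called Lpl only.

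**Figure D3:**
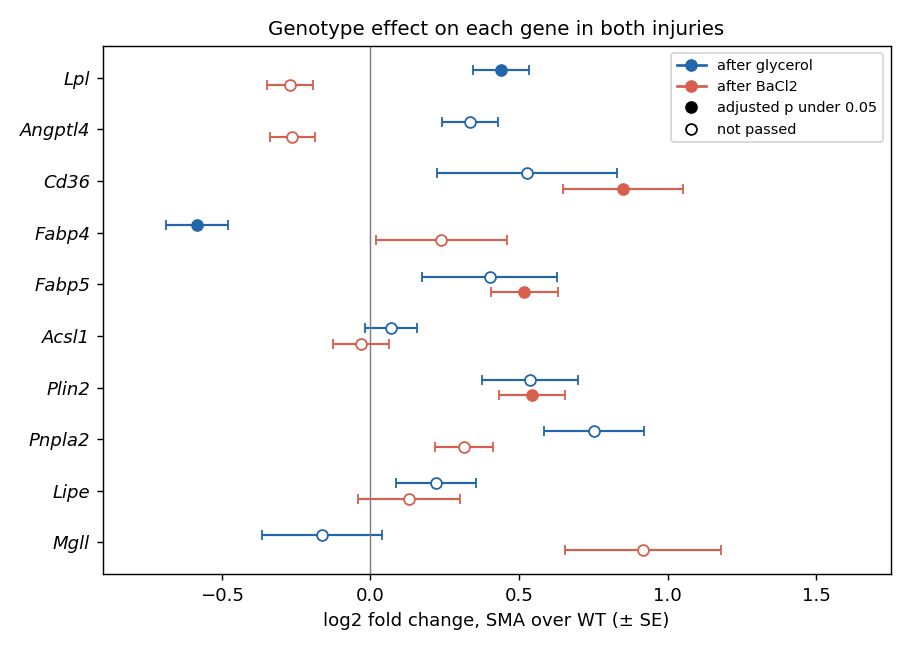
Log2 difference, SMA minus WT, of each of the 10 genes after glycerol and after BaCl2, with bars of 1 standard error; filled points passed the test; glycerol values are on the log2(value + 1) scale. Lpl and Angptl4 lie above 0 after glycerol and below 0 after BaCl2, and Plin2 lies at 0.54 in both.

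Lpl, which hydrolyses lipoprotein triglyceride outside the cell, had 72131, 78458, 64494 and 73875 normalised counts in SMA libraries 1 to 4 after glycerol, against 49635, 60686, 57001 and 46309 in WT libraries 1 to 4. Every SMA library was above every WT library. Lpl averaged 72240 ± 5813 in SMA and 53408 ± 6596 normalised counts in WT libraries (SD, n = 4 each), a log2 difference of 0.44 (SE 0.09, adjusted p = 0.0454 by limma). After BaCl2, Lpl had 465, 545 and 530 CPM in SMA libraries 1 to 3, against 573, 629 and 654 CPM in WT libraries 1 to 3. Here every SMA library was below every WT library. The log2 difference was -0.27 (SE 0.08), which did not pass (adjusted p = 0.0846 by edgeR; 0.0221 in the authors' deposited table). The genotype difference after glycerol exceeded that after BaCl2 by 0.71 on the log2 scale (SE 0.12, adjusted p = 3.85e-06 by the z test).

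Angptl4, a secreted inhibitor of lipoprotein lipase, lay on the same side of WT as Lpl in each injury. After glycerol it had 12812, 13802, 16575 and 13076 normalised counts in SMA libraries 1 to 4, against 10841, 10698, 10272 and 12712 in WT libraries 1 to 4. The groups did not overlap, with SMA library 1 only a little above WT library 4. The log2 difference of 0.33 (SE 0.09) did not pass (adjusted p = 0.0827 by limma; 0.0204 in the authors' deposited table). After BaCl2, Angptl4 had 283, 333 and 291 CPM in SMA libraries 1 to 3, against 387, 347 and 355 CPM in WT libraries 1 to 3. All SMA libraries were lower, by -0.26 on the log2 scale (SE 0.08, adjusted p = 0.0848 by edgeR). Between the injuries the genotype difference changed by 0.60 (SE 0.12, adjusted p = 9.92e-05 by the z test). Beside these values, the macrophage sum was above WT in 3 of 4 SMA libraries after glycerol and in all 3 after BaCl2. After glycerol, SMA library 3 was the lowest SMA library for that sum and for Lpl, and the highest of all libraries for Angptl4. The FAP sum, mostly collagen as given above, was below WT in all 3 SMA libraries after BaCl2. The fat cell markers had a median log2 difference of 1.90 after glycerol (4 tested) and 0.07 after BaCl2 (5 tested). The part of these sums and markers in the Lpl and Angptl4 results was not tested.

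The promoters of Cd36, Plin2 and Pnpla2 are shown for 1 gene each of uptake, droplet coat and lipolysis, a choice made after their values were seen. The 250 bases before the RefSeq start site (build GRCm38.p6) are given 5′ to 3′ along each gene's strand: Plin2 at chr4:86670060-86670309 on the minus strand, Cd36 at chr5:17835897-17836146 on the minus strand and Pnpla2 at chr7:141454938-141455187 on the plus strand. Capitals mark exact matches, on either strand, to the CCAAT box (CCAAT), the GC box (GGGCGG, or CCGCCC where it lies on the other strand) and the nuclear receptor half-site (AGGTCA, or TGACCT where it lies on the other strand).
Plin2: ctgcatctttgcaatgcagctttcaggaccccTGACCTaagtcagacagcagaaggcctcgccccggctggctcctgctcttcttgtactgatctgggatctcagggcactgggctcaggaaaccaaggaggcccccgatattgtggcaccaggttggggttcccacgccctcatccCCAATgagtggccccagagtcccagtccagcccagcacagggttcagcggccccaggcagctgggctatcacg
Cd36: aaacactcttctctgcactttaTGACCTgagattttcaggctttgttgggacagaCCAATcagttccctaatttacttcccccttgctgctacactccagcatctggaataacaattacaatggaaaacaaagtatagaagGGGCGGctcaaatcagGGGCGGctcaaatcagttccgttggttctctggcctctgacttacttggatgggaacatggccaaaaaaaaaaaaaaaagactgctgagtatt
Pnpla2: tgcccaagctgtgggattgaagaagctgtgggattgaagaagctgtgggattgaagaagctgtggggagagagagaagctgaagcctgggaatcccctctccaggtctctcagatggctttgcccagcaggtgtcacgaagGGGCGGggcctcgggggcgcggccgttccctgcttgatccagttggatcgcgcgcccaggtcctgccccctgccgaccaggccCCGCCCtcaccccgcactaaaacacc

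Positions are counted back from the start site to the first base of the match. Plin2 held a CCAAT box at -73 and, on the other strand, a nuclear receptor half-site at -218. Cd36 held a CCAAT box at -195, GC boxes at -109 and -93 and, on the other strand, a half-site at -228. Pnpla2 held GC boxes at -109 and, on the other strand, at -26. Of all 32851 RefSeq promoters of this length, 33.8% held CCAAT, 32.7% GGGCGG and 14% AGGTCA, so that each match is common. TATAAA (12.4% of promoters), CACGTG (6.02%) and the direct repeat of AGGTCA with 1 base between (0.0335%), to which PPAR and RXR pairs bind, had no match in these 3 windows on either strand. Promoters were found for 6 of the 10 genes, the other 3 being Acsl1, Lipe and Mgll. Among those not shown, CACGTG had a match in Lipe at -155 and in Mgll at -44, and GGGCGG had matches in all 3. The bases just after the start site were found in a GENCODE vM21 transcript of the gene for Plin2 and were not found in one for Cd36 or Pnpla2, so those 2 start sites rest on RefSeq alone.

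Cd36, the membrane receptor for long-chain fatty acids and oxidised lipoproteins, had 24663, 27658, 10419.5 and 32033 normalised counts in SMA libraries 1 to 4 after glycerol, against 17674, 14038, 13922 and 15262 in WT libraries 1 to 4. SMA library 3 was the lowest of all 8 and the other SMA libraries were the highest, so the groups overlapped. The log2 difference of 0.53 (SE 0.30) did not pass (adjusted p = 0.326 by limma), and without SMA library 3 it was 0.88 (adjusted p = 0.00179). After BaCl2, Cd36 had 198, 162 and 122 CPM in SMA libraries 1 to 3, against 114, 64.9 and 88.2 CPM in WT libraries 1 to 3. Every SMA library was above every WT library, with SMA library 3 close to WT library 1. The mean was 160.4 ± 38.0 CPM in SMA, against 88.9 ± 24.4 CPM in WT libraries (SD, n = 3 each), a log2 difference of 0.85 (SE 0.20, adjusted p = 0.0451 by edgeR).

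Fabp5, a carrier found in macrophages and epithelium, had 12338, 13151, 7289 and 17129 normalised counts in SMA libraries 1 to 4 after glycerol, against 10119.8, 7434, 8841 and 10002 in WT libraries 1 to 4. SMA library 3 was again the lowest of all and the groups overlapped (log2 difference 0.40, SE 0.23, adjusted p = 0.318 by limma). Without SMA library 3 the difference was 0.64 (adjusted p = 0.0214). After BaCl2, Fabp5 had 108, 87.1 and 84.5 CPM in SMA libraries 1 to 3, against 75.1, 58.0 and 62.1 CPM in WT libraries 1 to 3. The groups did not overlap, and the log2 difference was 0.52 (SE 0.11, adjusted p = 0.0327 by edgeR). Fabp5 has near-identical processed pseudogenes, Gm6166 and Gm14328, which held 41 to 111 and 5 to 16 counts a library, against 6710 to 11839 for Fabp5 itself.

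Fabp4, the carrier of fat cells and capillary endothelium, was the 1 gene of the 10 that limma called lower after glycerol. It had 2197, 2421, 2251 and 1949 normalised counts in SMA libraries 1 to 4 after glycerol, against 2963, 2932, 3478 and 3882 in WT libraries 1 to 4. Every SMA library was below every WT library, SMA library 3 included. Fabp4 averaged 2205 ± 195 normalised counts in SMA and 3314 ± 454 in WT libraries (SD, n = 4 each), a log2 difference of -0.58 (SE 0.10, adjusted p = 0.0317 by limma). After BaCl2, Fabp4 had 44.2, 53.3 and 45.7 CPM in SMA libraries 1 to 3, against 54.2, 24.5 and 42.6 CPM in WT libraries 1 to 3. The WT libraries spread on both sides of the SMA libraries, and the log2 difference of 0.24 (SE 0.22) did not pass (adjusted p = 0.623 by edgeR). The change between injuries was -0.82 (SE 0.24, adjusted p = 0.0137 by the z test). The endothelial sum was likewise lower in all 4 SMA libraries after glycerol and lowest in WT library 2 after BaCl2, where Fabp4 was lowest. Of the 15 endothelial markers 6 were lower after glycerol by limma, and edgeR called 0 after BaCl2, with 2 at an unadjusted p under 0.05 and 0 by DESeq2. The 6 became 9 without SMA library 3 and 0 without any one of the 7 other glycerol libraries, with 13 or 14 at an unadjusted p under 0.05 by limma. The median log2 difference of that list was -0.93 after glycerol and 0.45 after BaCl2. The pericyte and smooth muscle list had medians of -0.58 after glycerol and 0.28 after BaCl2. The part of either list in the Fabp4 result was not tested.

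Acsl1, which couples fatty acids to coenzyme A, did not pass in either set. It had 1281 to 1426 normalised counts in SMA and 1161 to 1450.2 in WT libraries after glycerol (log2 difference 0.07, adjusted p = 0.675 by limma). After BaCl2 it had 15.3 to 18.7 CPM in SMA, against 16.8 to 19.1 CPM in WT libraries (log2 difference -0.03, adjusted p = 0.903 by edgeR). The groups overlapped in both sets, and the SE of 0.09 in each leaves small differences undetected.

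Plin2, the perilipin that coats droplets in most cells other than fat cells, had 20763, 22571, 13662 and 25327 normalised counts in SMA libraries 1 to 4 after glycerol, against 14150.5, 13693, 14195 and 13338 in WT libraries 1 to 4. WT libraries were nearly level, 3 SMA libraries lay far above them, and SMA library 3 lay within their range. The log2 difference of 0.54 (SE 0.16) did not pass (adjusted p = 0.0970 by limma; 0.00814 in the authors' deposited table), and without SMA library 3 it was 0.72 (adjusted p = 0.000597). After BaCl2, Plin2 had 299, 268 and 219.8 CPM in SMA libraries 1 to 3, against 190.0, 159 and 191 CPM in WT libraries 1 to 3. Every SMA library was above every WT library. The mean was 262 ± 39.8 CPM in SMA, against 179.8 ± 18.2 CPM in WT libraries (SD, n = 3 each), a log2 difference of 0.54 (SE 0.11, adjusted p = 0.0250 by edgeR).

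**Figure D4:**
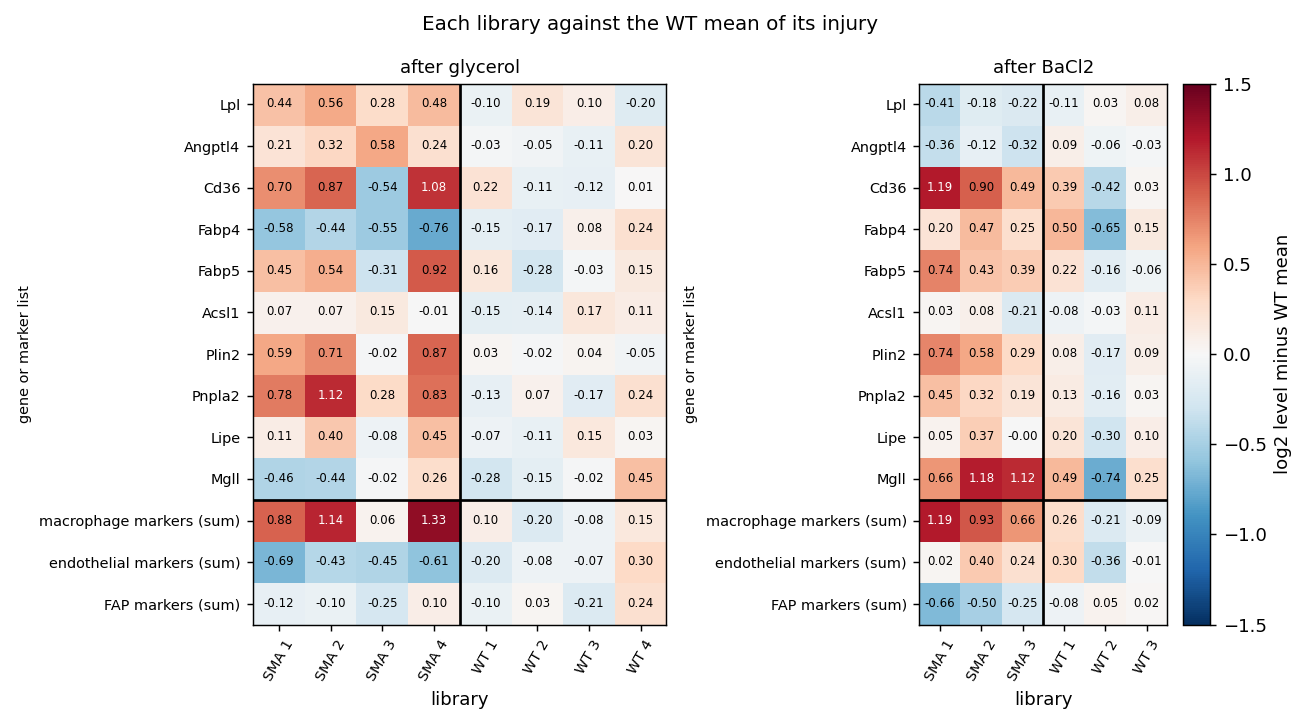
Log2 level of each of the 10 genes in each library, relative to the WT mean of the same injury, as a colour scale with SMA libraries left of WT libraries in each injury; the last 3 rows are the summed macrophage, endothelial and FAP markers. Cd36, Fabp5, Plin2 and Pnpla2 are above the WT mean in SMA libraries 1, 2 and 4 after glycerol and in all 3 after BaCl2; SMA library 3 after glycerol is below it for Cd36, Fabp5 and Plin2.

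Cd36, Fabp5, Plin2 and Pnpla2 varied with the macrophage sum over libraries: SMA library 3, whose sum was in the WT range after glycerol, had WT-range or lower values of Cd36, Fabp5 and Plin2 and the lowest SMA value of Pnpla2. After BaCl2, SMA library 1 was highest for the sum and for all 4 genes, and Cd36, Fabp5 and Pnpla2 ordered all 6 libraries as the sum did. The macrophage list had a median log2 difference of 1.01 after glycerol and 0.92 after BaCl2; its part in these results was not tested.

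Of the lipolysis genes, Pnpla2, which takes the first fatty acid from triglyceride, came closest to a call after glycerol. It had 1389.9, 1757, 985 and 1435 normalised counts in SMA libraries 1 to 4, against 739.7, 846, 717 and 952 in WT libraries 1 to 4. Every SMA library was above every WT library, SMA library 3 only just. Its log2 difference of 0.75 (SE 0.17) was the largest of the 10 genes after glycerol and missed the threshold (adjusted p = 0.0504 by limma; 0.00036 in the authors' deposited table). After BaCl2 it had 21.2, 19.3 and 17.7 CPM in SMA libraries 1 to 3, against 17.0, 13.9 and 15.9 CPM in WT libraries 1 to 3. The groups did not overlap, with a log2 difference of 0.32 (SE 0.10, adjusted p = 0.104 by edgeR; 0.0318 in the authors' deposited table). The macrophage sum, given above with Cd36, Fabp5 and Plin2, had the same order of libraries after BaCl2, and its part in the Pnpla2 values was not tested.

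Mgll, which cleaves monoglycerides, differed between the injuries. After glycerol it had 419, 423, 569.5 and 691 normalised counts in SMA libraries 1 to 4, against 474, 518, 569 and 787 in WT libraries 1 to 4. The groups overlapped (log2 difference -0.16, SE 0.20, adjusted p = 0.669 by limma). After BaCl2 it had 8.84, 12.6 and 12.2 CPM in SMA libraries 1 to 3, against 7.83, 3.33 and 6.65 CPM in WT libraries 1 to 3. SMA libraries were all above WT libraries, WT library 2 being far the lowest, and the log2 difference of 0.92 (SE 0.26) did not pass (adjusted p = 0.0842 by edgeR). The change between injuries was -1.08 (SE 0.33, adjusted p = 0.0179 by the z test). The endothelial sum had its lowest BaCl2 value in the same WT library 2, and its part in the result was not tested. Mgll overlaps 5 other annotated genes, Gm44005, Gm43999 and Gm44001 on its own strand and Gm26588 and Gm43937 on the opposite strand. Whether strand was used in counting is not given in the sources used here, and strand would not separate genes of the same strand.

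Lipe, the diglyceride lipase under hormonal control in fat cells, was the lowest of the 10 per length of transcript and did not pass in either set. It had 335 to 486 normalised counts in SMA and 329 to 394 in WT libraries after glycerol, and 3.18 to 4.11 CPM in SMA, against 2.59 to 3.65 CPM in WT libraries after BaCl2. The log2 differences were 0.22 (adjusted p = 0.354 by limma) and 0.13 (adjusted p = 0.750 by edgeR). Lipe shares its locus with an antisense gene, 4732471J01Rik. Overlap was taken between whole gene spans, so how many reads could be ambiguous without strand was not measured.

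Levels were ordered among the genes per kilobase of merged exon (GENCODE vM21). After glycerol the order in SMA libraries was Lpl (6894 ± 555 normalised counts per kilobase), Cd36 (6600 ± 2605), Plin2 (5860 ± 1418), Angptl4 (3972 ± 487) and Fabp5 (3498 ± 1133), then Fabp4, Pnpla2, Acsl1, Mgll and Lipe (71.0 ± 12.1). In WT libraries it ran through the same 10 places, at 5097 ± 629.5 for Lpl and 60.4 ± 4.98 for Lipe. From Lpl to Fabp5 each gene and the next lay within their SDs in SMA libraries, as did Acsl1 and Mgll. Fabp4 and Pnpla2 were within their SD of each other in SMA (491 ± 43.5 and 461 ± 105 normalised counts per kilobase) and apart in WT libraries (738 ± 101 and 269 ± 35.7). After BaCl2, Angptl4 stood first at 85.4 ± 7.65 CPM per kilobase in SMA and 102.5 ± 5.95 in WT libraries. Plin2 was next in SMA (74.7 ± 11.3, above Lpl at 49.0 ± 4.06), while in WT libraries Lpl (59.0 ± 3.997) was above Plin2 (51.2 ± 5.19). Lpl and Plin2 in WT libraries, and Angptl4 and Plin2 in SMA libraries, lay within their SDs. Lipe was last, at 0.599 ± 0.0862 CPM per kilobase in SMA and 0.547 ± 0.0952 in WT libraries.

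For each gene, the 3 genes most like it were found by the smaller of 2 Pearson correlations of log2 values, over the 8 glycerol and the 6 BaCl2 libraries. These libraries share their genotype split and their mix of cells, so the values are descriptions. Plin2 was most like Coro1a (0.993 after glycerol and 0.996 after BaCl2), Ikzf1 and Ptafr. Fabp5 was most like Adam8, Lyz2 (0.971 after glycerol and 0.988 after BaCl2) and Ifi30, and Cd36 had Bcl2a1b (0.972 after glycerol and 0.976 after BaCl2) and Adssl1 among its 3. Pnpla2 was most like Crybg1, Sorl1 and Cd300a, and Lpl most like Sh2b1, Ctdsp1 and Smarcd2. Fabp4 was most like Esam (0.989 after glycerol and 0.983 after BaCl2), Tie1 and Egfl7, all 3 of them on the endothelial list. Angptl4 was most like Zfp36, Irf1 and Hpn, and Mgll most like Fgd5, Cdh13 and Sh3bgrl2. Lipe (Dcaf11 and Abi3 among its 3) and Acsl1 (Dgat2, Lin7a, Ppargc1b) had less close partners, with 0.78 after glycerol for Acsl1 and Dgat2.

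Of the other genes of the pathway, 6 of 109 passed after glycerol (2 higher and 4 lower in SMA), where 2.87% of all genes did, and 5 of 112 after BaCl2 (4 higher and 1 lower), where 4.29% did. Among genes of lipoprotein uptake and fatty acid entry, 3 of 18 were lower and 0 higher in SMA after glycerol by limma. Among them were Gpihbp1, which anchors lipoprotein lipase on capillary endothelium (109.7 ± 16.03 normalised counts in SMA and 210.4 ± 41.5 in WT libraries, SD, n = 4 each, log2 difference -0.92), and Lmf2, a factor related to the maturation factor of lipases (-0.19). After BaCl2, 1 of 21 was higher by edgeR, Slc27a1, a fatty acid transport protein (25.5 ± 3.09 CPM in SMA, against 16.04 ± 1.99 CPM in WT libraries, SD, n = 3 each, log2 difference 0.67), and 0 were lower. Gpihbp1 differed between the injuries by -1.66 (adjusted p = 7.2e-05 by the z test), opposite in sign to Lpl, while the endothelial sum moved as given above.

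Of 10 genes of fatty acid activation, Acsl3, a synthetase of nascent droplets, was lower after glycerol (log2 difference -0.48 by limma). After BaCl2 edgeR called 0 of 10, with 2 at an unadjusted p under 0.05 and 0 by DESeq2. Of 15 genes of triglyceride synthesis limma called 0 after glycerol, with 2 at an unadjusted p under 0.05, and edgeR called 2 higher after BaCl2: Gk, glycerol kinase (15.3 ± 1.63 CPM in SMA, against 11.3 ± 0.81 CPM in WT libraries, SD, n = 3 each), and Gpat3, an acyltransferase of glycerol-3-phosphate (1.54 ± 0.39 CPM in SMA, against 0.781 ± 0.0548 CPM in WT libraries, SD, n = 3 each). Of droplet coat and assembly genes, limma called 0 of 12 after glycerol, with 4 at an unadjusted p under 0.05, and edgeR called 1 of 13 lower after BaCl2, Tmem159 (log2 difference -0.32), also named Ldaf1, a droplet assembly factor. Of other lipases and lipolysis regulators, Pnpla7, a lysophospholipase, was higher after glycerol, 1 of 16 (log2 difference 0.58 by limma), and edgeR called 0 of 15 after BaCl2, with 6 at an unadjusted p under 0.05 and 3 by DESeq2.

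Of 25 genes of fatty acid oxidation limma called 0 after glycerol, with 3 at an unadjusted p under 0.05, and edgeR called 1 higher after BaCl2, Ucp2, a mitochondrial carrier (120.4 ± 8.90 CPM in SMA, against 74.8 ± 7.69 CPM in WT libraries, SD, n = 3 each, log2 difference 0.69). Ucp2 and Slc27a1 ordered the BaCl2 libraries as the macrophage sum did, and Gpat3, Gk and Tmem159 did not. The part of that sum in the pathway results of either injury was not tested. Of 13 nuclear receptors and coactivators, Nr1h3, the liver X receptor alpha, was higher after glycerol (log2 difference 0.61 by limma), and edgeR called 0 after BaCl2, with 3 at an unadjusted p under 0.05 and 1 by DESeq2. After glycerol the 6 called pathway genes all lost the call without SMA library 1, 2 or 4 or WT library 1, 2 or 3 by limma (21 to 29 of 109 at an unadjusted p under 0.05), 3 of them, Acsl3 and Pnpla7 included, kept it without WT library 4, and 17 pathway genes were called without SMA library 3. With all glycerol libraries, 28 of 109 pathway genes had an unadjusted p under 0.05 by limma, where 3333 of all 14330 genes did. After BaCl2 the count of 5 by edgeR became 0 without WT library 3 (25 of 113 at an unadjusted p under 0.05), 1 (Ucp2) without SMA library 2 or WT library 2, 2 without WT library 1, 3 without SMA library 1 and 10 without SMA library 3.

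Between the injuries the genotype difference of 17 of 108 pathway genes passed the z test, 13 upward and 4 downward after glycerol relative to BaCl2, where 10.5% of all genes passed. Gpihbp1 (-1.66), Acsl3 (-0.39), Acsl4, a synthetase that prefers arachidonic acid (-0.37), and Gk (-0.51) were the downward ones. The upward ones of the droplet were Plin1, the perilipin of fat cells (2.85), Ldaf1 (0.46) and Hsd17b11, a droplet enzyme (0.39). Of lipolysis they were G0s2, an inhibitor of Pnpla2 (1.16), Pnpla7 (0.35), Ces1d, a carboxylesterase (1.93), and Prkar2b, a regulatory subunit of protein kinase A (0.51). Of oxidation they were Cpt1a, which admits fatty acids to mitochondria (0.26), and the thiolases Acaa2 (0.22) and Acaa1a (0.30). Cavin1, a coat protein of caveolae (0.35), and Rxra, a partner of the PPAR receptors (0.26), were also upward. Pparg, the receptor that drives fat cell formation, differed by 0.68 (SE 0.21, adjusted p = 0.0185 by the z test) and was not called within either injury. With each of the 14 libraries left out, 9 of the 17 always passed: Gpihbp1, Acsl3, Acsl4, Gk, Plin1, Ldaf1, Hsd17b11, G0s2 and Pnpla7. The count was 10 without WT glycerol library 1 and 11 without SMA glycerol library 2, and Pparg lost its call in both cases and without WT glycerol library 4. Without SMA BaCl2 libraries 1 and 2 together it was 4, and a single limma fit over both tables called 0, with 26 at an unadjusted p under 0.05.

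**Figure D5:**
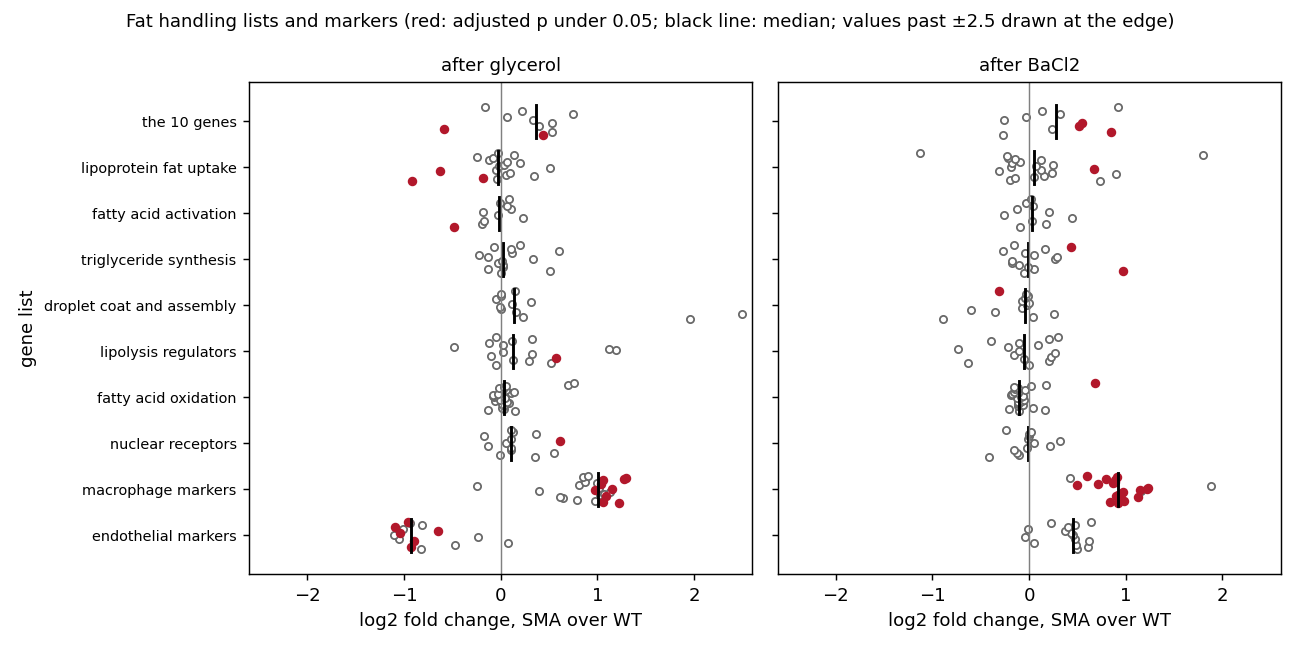
Log2 difference, SMA minus WT, of every tested gene of the pathway and marker lists after glycerol (left) and after BaCl2 (right), one row a list; red points passed the test, open points did not, and the black line is the list's median. Points past 2.5 are drawn at the edge. The macrophage list lies to the right in both panels, with medians of 1.01 and 0.92, and the endothelial list lies at -0.93 after glycerol and 0.45 after BaCl2.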

How the data were processed

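RNA of primary FAPs was enriched for poly(A) and made into directional libraries, per the labels' protocols. The submitters' processing notes name fastp, Salmon, featureCounts and DESeq2, without saying which made which table. The aligner, genome build and strand setting were not given in the sources used here. For BaCl2, raw counts per gene were deposited. The glycerol table holds normalised counts (a signal already scaled by the authors, not whole reads), so it was tested on a log scale. Both deposited tables carry the authors' log2 fold changes and adjusted p-values, quoted only where named as such. Another 6 columns of per-sample values (scaled copies in the BaCl2 table) were not used.

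BaCl2 counts were filtered with filterByExpr, scaled by TMM and fitted with edgeR 4.0.16 (R 4.3.3), and per-library values are CPM on those scaled totals. Glycerol values were fitted as log2(value + 1) with limma 3.58.1 and a mean-variance trend, so that its differences understate those of low genes. Each fit held only the libraries of its injury, and p-values were adjusted over all genes (Benjamini-Hochberg, 0.05). The difference between injuries was a z test over 13960 genes in both fits, with separately normalised tables on either side. It used the normal distribution and so made no allowance for the few libraries behind each SE. The scripts were tested on simulated data. DESeq2 1.42.0, other scalings, filters and pseudocounts, each library left out and a replicate block were tried as alternatives; the alternatives for the pathway and marker lists were added after seeing the data.

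The 10 genes and all lists were chosen with earlier results of these data known. The 10 are always named, every pathway gene past the threshold is named up to 5 a list and comparison, and the 3 genes most like each of the 10 are named; a few genes that these rules pick are not reported here. Exon lengths and overlaps are from GENCODE vM21, copies from BLAST 2.17.0 at 95% identity over at least 200 bases, and promoters from RefSeq. Raw totals set the depth of the BaCl2 set only.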

Additional observations from a re-analysis of the deposited data

Results flagged for a closer look

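By the z test, whose p-values are likely too small, the genotype difference, SMA minus WT, differed between glycerol and BaCl2 injury for 4 of the 10 genes. It differed by 0.71 (log2) for Lpl, which lay above WT in all 4 SMA libraries after glycerol and below WT in all 3 after BaCl2. It differed by 0.60 for Angptl4, with the same arrangement of libraries. It differed by -0.82 for Fabp4, which lay below WT in all 4 SMA libraries after glycerol and overlapped WT after BaCl2. It differed by -1.08 for Mgll, which overlapped WT after glycerol and lay above WT in all 3 SMA libraries after BaCl2. No library passed Dixon's test, on the gap of the farthest library relative to the range, in the 20 combinations of gene and glycerol group examined. With 4 libraries a group, that gap must fill most of the range to pass, so the test cannot exclude a library apart. SMA library 3 was not flagged for Cd36, Fabp5 or Plin2, although limma called these genes after glycerol when it was left out. Groups of 3 were not examined.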

How the results depend on the processing

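Of the 10 genes, edgeR called 3 after BaCl2. It called 7 with no filter on low counts, 6 were called by DESeq2, and 0 without SMA libraries 1 and 2 together, with 5 at an unadjusted p under 0.05. Leaving out 1 library gave 0 to 4. Over all genes the count of 863 became 1867 with no filter, 1692 by DESeq2 and 108 without both SMA libraries, and 41 to 1577 with 1 library left out. After glycerol limma called 2 of the 10. Without a mean-variance trend it called 0 (5 at an unadjusted p under 0.05), with 2 of all genes in place of 411, and with 1 library left out it called 0 to 6 and 0 to 1645. The difference between injuries passed for 4 of the 10. It passed for 1 (Lpl) in a single limma fit over both tables, for 3 without SMA BaCl2 libraries 1 and 2, and for 2 to 5 with 1 library left out. Over all genes these counts were 1470, 53, 586 and 1004 to 1969. The causes were not tested.

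The labels do not say whether replicate numbers pair the libraries. Same-numbered SMA and WT deviations correlated at 0.256, -0.0144, 0.0479 and 0.184 after glycerol and at 0.092, -0.179 and 0.134 after BaCl2. Libraries of different number were not compared, so these values cannot decide it. With a replicate block limma called 1 of the 10 (Pnpla2) and 257 of all genes after glycerol, edgeR called 4 and 1144 after BaCl2, and the z test called 5 and 1940.

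Signs turned only for differences that had not passed. With 1 library left out, after BaCl2 Acsl1 ranged over -0.083 to 0.060, Fabp4 over -0.021 to 0.51 and Lipe over -0.0048 to 0.23. The difference between injuries ranged over -0.13 to 0.18 for Plin2, -0.0089 to 0.23 for Lipe, -0.54 to 0.034 for Cd36 and -0.29 to 0.12 for Fabp5. Without SMA BaCl2 libraries 1 and 2, Lipe after BaCl2 was -0.021, and the difference between injuries was 0.25 for Plin2, 0.077 for Cd36 and 0.026 for Fabp5. With 3 or 4 libraries a group and SEs of 0.08 to 0.30, small differences were not detectable.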
